A study of Sus scrofa with 37 samples.

Results

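Genes that decide how human blood meets pig tissue were examined in pig pancreas and in cultured pig islets. The list held 9 genes: the sugar enzymes GGTA1, CMAH and B4GALNT2, the complement regulators CD46, CD55 and CD59, and the clotting genes THBD, TFPI and F3. They were chosen by symbol, and a row was matched for 3 of the 9: CMAH (ENSSSCG00000001099), TFPI (ENSSSCG00000016032) and F3 (ENSSSCG00000022447), out of 25880 gene identifiers, 14857 of which carried a symbol. The other 6 genes were not analysed here.

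Islets of pigs have been studied as grafts for diabetes, and pig cells that meet human blood are attacked through sugars, complement and clotting. GGTA1 makes the alpha-Gal epitope, CMAH hydroxylates the activated sialic acid N-acetylneuraminic acid to the N-glycolyl form, which human cells cannot make, and B4GALNT2 adds the terminal sugar of the Sda antigen. Humans carry antibodies against these sugars. CD46, CD55 and CD59 restrain complement on the cell surface. F3, or tissue factor, starts clotting by binding factor VIIa, TFPI inhibits that complex together with factor Xa, and THBD turns thrombin from a clotting enzyme into an activator of protein C.

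RNA sequencing had been done on pancreas parenchyma, taken as a 50 mg piece of the duodenal lobe at organ retrieval, and on islets that were purified and kept floating in culture for 7 days. The labels divide the samples into High and Low islet density, without stating the limit between them, and give no strain, genotype, age or sex. Counts were used for 8 High and 9 Low pancreas libraries, for 8 of the 10 High and all 9 Low islet samples, and for 1 islet library with no density label (animal 12AS51). Islets and pancreas differ in culture as well as in cell type, and these cannot be told apart. Of the 15 animals with a density label in both tissues, 4 carry different labels: 2 are High for pancreas and Low for islets, and 2 the reverse.

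Islet libraries held 3237653 to 6702589 gene counts and High pancreas libraries 1855075 to 3922006. Of the 9 Low pancreas libraries, 7 held only 265000 to 536014 counts. They came from animal 12FS135 and from the 6 animals whose code begins with 14, and are called the shallow libraries here. In them 3 counts correspond to 5.6 to 11.3 counts on the scale of a library total of 1000000 (CPM), against 0.448 to 0.927 CPM in islets. The 14 acinar markers summed to 11940 to 31920 CPM in the shallow libraries, to 170900 to 278200 in High pancreas and to 5.67 to 527 in islets. The 17 pan-endocrine markers summed to 348 to 16320 CPM in pancreas, highest in animal 15LS30, and to 55320 to 100800 in the labelled islets. The islet library of 12AS51 stood apart at 8533 CPM, and its source name, like that of the islet library of 11KS28, reads pancreas.

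CMAH RNA was found mainly in the pancreas piece and was close to undetected in the cultured islets. In the 17 pancreas libraries CMAH ranged from 6.75 to 118.6 CPM with a median of 41.5, and in the 18 islet libraries from 0 to 2.72 CPM with a median of 0.613. Every pancreas library lay above every islet library. The share of all genes that separate in this way was not computed. The islet counts of CMAH were 0 to 9 per library, with 4 libraries at 0 and 13 at or under 3 counts. The upper 95% Wilson bound of the 4 libraries at 0 was 0.741 to 1.19 CPM, and these bounds cover counting error only. Summed over libraries, CMAH had 2030 counts in pancreas, or 65.9 CPM (Wilson 63.1 to 68.8), and 56 counts in islets, or 0.714 CPM (0.550 to 0.927).

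The mean level of CMAH was 48.0 ± 35.5 CPM (SD, n = 17) in pancreas and 0.774 ± 0.826 CPM (SD, n = 18) in islets, a ratio of 62.0. The edgeR quasi-likelihood test put CMAH at -6.61 on the log2 scale for islets against pancreas (SE 0.39, adjusted p = 6.17e-18), with an interval of 2 SE from -7.39 to -5.82. CMAH passed the filter on low counts through its pancreas libraries and did not pass it among islets alone. This test of islets against pancreas could hardly have shown anything but a fall. In this comparison 62.6% of the 12339 tested genes passed, and 31.5% passed as lower in islets. Of all tested genes, 72 had a lower fold change than CMAH.

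In 16 of 16 animals with both tissues the pancreas level of CMAH was above the islet level. This had to follow under any pairing of the libraries, since every pancreas library lay above every islet library. The pairing by animal thus adds no support. How many other genes were higher in pancreas in all animals was not counted. In the 13 animals with any islet count the ratio ran from 3.07 to 423, with a median of 37.1. The highest came from 12AS51, whose islet library stood apart and held 1 count of CMAH, and the next was 195. The lowest pancreas value, 6.75 CPM in animal 12FS135, rested on 2 counts (Wilson 1.85 to 24.6 CPM). The shallow pancreas libraries had the smaller mean of CMAH, 19.6 ± 13.3 CPM (SD, n = 7) on 2 to 11 counts each. The mean of the other pancreas libraries was 67.8 ± 32.5 CPM (SD, n = 10). The ranges overlapped (6.75 to 41.5 CPM, against 21.0 to 118.6). Set against all islets, CMAH was 25.3 times higher in the shallow libraries and 87.6 times higher in the deeper ones. With only the shallow libraries as pancreas its log2 fold change was -4.72 (edgeR, adjusted p = 2.72e-10), and without them it was -6.98 (5.99e-17).

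**Figure D1:**
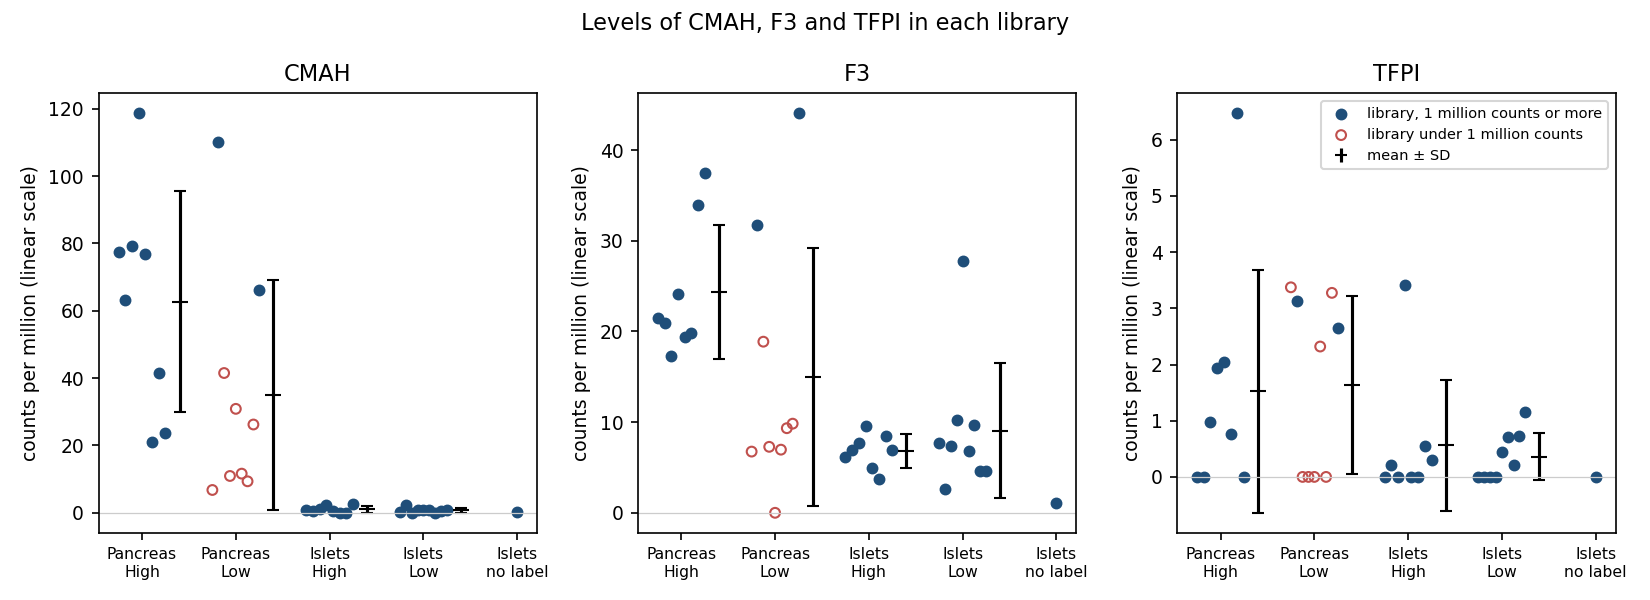
CMAH, F3 and TFPI in CPM (linear axes) for each group of libraries; a point is a library, and lines mark the group mean and SD. CMAH lies at or below 2.72 CPM in all islets and reaches 118.6 CPM in pancreas, and the Low pancreas points split by depth.

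F3, the starter of clotting, was detected in every islet library and was lower there than in the deeper pancreas libraries. The F3 level was 1.04 to 27.8 CPM in the 18 islet libraries, with a median of 6.95, on 7 to 126 counts. In High pancreas F3 ranged from 17.2 to 37.5 CPM with a median of 21.2, on 52 to 109 counts. The deeper Low pancreas libraries held 31.8 CPM (12FS161) and 44.0 CPM (15LS30). The shallow libraries held 0 to 18.9 CPM of F3 on 0 to 5 counts. The deeper pancreas libraries thus lay above all islet libraries but that of animal 14HS26, which at 27.8 CPM lay among them. The shallow libraries lay within the islet range apart from 1 library without an F3 count. The highest of them, 18.9 CPM in 14BS54, lay above every islet library but that of 14HS26. The lowest islet value, 1.04 CPM, came from 12AS51 and was 8.46 CPM after the scaling used in the test.

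The mean of F3 was 19.4 ± 12.2 CPM (SD, n = 17) in pancreas and 7.59 ± 5.61 CPM (SD, n = 18) in islets. Its log2 fold change for islets against pancreas was -1.996 (edgeR, SE 0.24, adjusted p = 1.79e-09), with an interval from -2.47 to -1.52, and 1092 tested genes had a lower one. This call rested on the deeper pancreas libraries. With only the shallow libraries as pancreas, the F3 log2 fold change was -0.29 (SE 0.49, adjusted p = 0.604), where the median over all genes was 0.31, and without them -2.24 (1.51e-10). All 9 animals with a deeper pancreas library had more F3 in pancreas than in islets, by 2.35 to 20.0 times. The 20.0 again came from 12AS51, and the next was 8.16. Of the 7 animals with a shallow library, 3 had more F3 in pancreas and 4 more in islets. Without the islet library of 12AS51, F3 was at -2.03 (1.41e-09) and CMAH at -6.65 (6.36e-18).

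TFPI, the inhibitor of the complex that F3 starts, was near the limit of detection in both tissues. In pancreas TFPI ranged from 0 to 6.47 CPM with a median of 0.976, and 7 of 17 libraries were at 0. In islets TFPI ranged from 0 to 3.42 CPM with a median of 0.105, and 9 of 18 libraries were at 0. The ranges overlapped, and 12 pancreas and 16 islet libraries were at or under 3 counts. Pooled, TFPI had 47 counts in pancreas, or 1.53 CPM (Wilson 1.15 to 2.03), and 31 in islets, or 0.395 CPM (0.279 to 0.561). Of these, 12 pancreas counts came from animal 16CS60 and 14 islet counts from animal 12FS135.

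TFPI did not pass the filter on low counts in any comparison and has no main test. Fitted without a filter, its log2 fold change for islets against pancreas was -1.89 (edgeR, SE 0.63, adjusted p = 0.00905), where the median over all genes was -0.436. By animal, TFPI was higher in pancreas in 8 of 16, higher in islets in 3 and equal in 5. TFPI is known to be made by endothelial cells, and F3 by cells around vessels and by epithelia. The 11 matched endothelial markers summed to 94.6 to 440 CPM in pancreas and 128 to 300 CPM in the labelled islets, with 25.1 CPM in 12AS51, and each had counts in both tissues. Of these 11 markers, 9 passed as lower in islets and 0 as higher, with a median log2 fold change of -0.95. Their part in the results for TFPI and F3 was not tested. In pieces and islets of mixed cells, fewer cells of a type and less RNA per cell cannot be told apart.

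**Figure D2:**
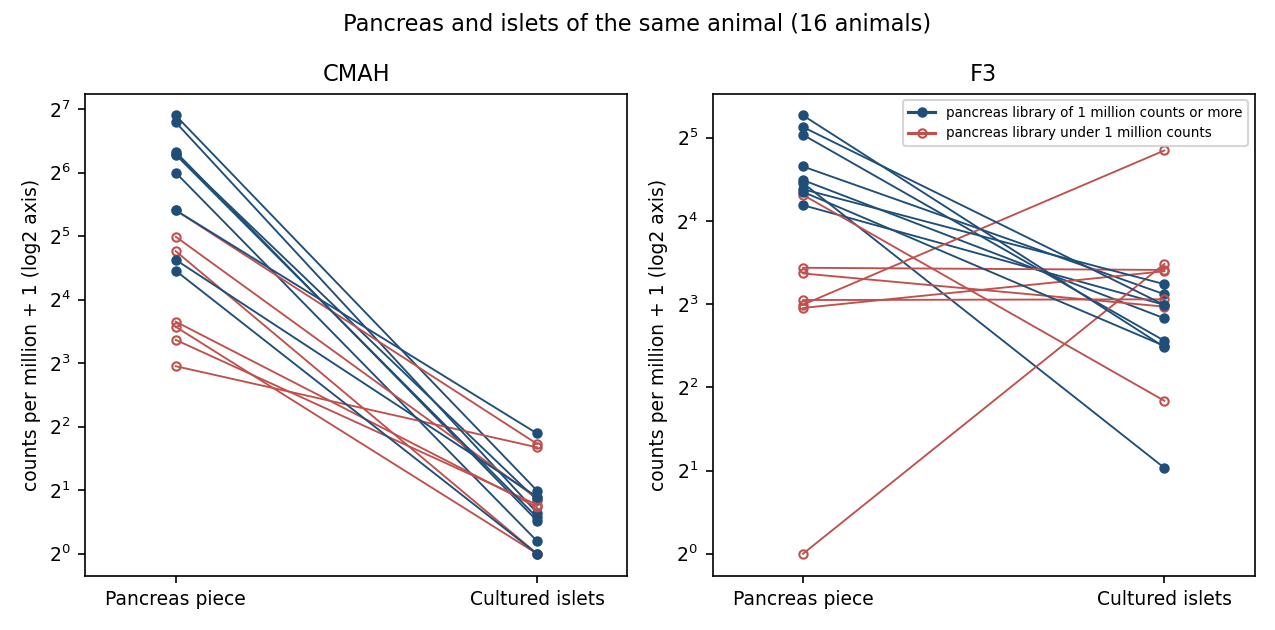
CMAH and F3 in the pancreas piece and the cultured islets of the 16 animals with both libraries, in CPM plus 1 on a log2 axis; a line joins the libraries of an animal. All CMAH lines fall from pancreas to islets, whereas 12 F3 lines fall and 4 rise.

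Islet density was then compared within each tissue. In the pancreas, CMAH was 21.0 to 118.6 CPM (median 70.0) in the 8 High libraries and 6.75 to 110.1 CPM (median 26.2) in the 9 Low libraries, and the groups overlapped. The means were 62.7 ± 32.8 (SD, n = 8) and 34.8 ± 34.2 CPM (SD, n = 9). The log2 fold change of High against Low was 0.89 (edgeR, SE 0.41, adjusted p = 0.0804), which did not pass, in a comparison where 40.3% of 10634 genes passed. Of these, 1998 were higher and 2285 lower in High, and with upper-quartile scaling 1467 and 2772. The Low libraries divide by depth: 12FS161 and 15LS30, the deeper ones, held 110.1 and 66.3 CPM, and the shallow ones 6.75 to 41.5 CPM. Without the shallow libraries the CMAH value was 0.02 (adjusted p = 0.994), and 0 of 13217 genes passed.

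CMAH passed under other choices that kept all or most of the shallow libraries. It was at 1.30 (edgeR, adjusted p = 0.0165) without a filter on low counts and at 1.17 (0.038) with a filter of 1 CPM. It was at 1.38 (0.00945) without the 4 animals whose labels differ between tissues, which leaves out the shallow library of 12FS135 and the deeper Low library of 12FS161. Leaving out the Low library of 12FS161 gave 1.27 (0.00951). Leaving out the High library of 15LS29, 16CS60 or 16IS5, the 3 High libraries with the lowest CMAH levels, gave 1.07 to 1.10 (adjusted p = 0.0361 to 0.0466).

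For F3 the mean of the High pancreas libraries was 24.3 ± 7.38 CPM (SD, n = 8), and that of the Low ones was 15.0 ± 14.2 (SD, n = 9). The Low libraries reached from 0 to 44.0 CPM, around the whole High range of 17.2 to 37.5. The log2 fold change of High against Low for F3 was 0.51 (edgeR, SE 0.31, adjusted p = 0.187) and did not pass. It was 0.90 (0.0363) without a filter, and turned to -0.17 (0.872) without the shallow libraries. High pancreas held 1.52 ± 2.16 CPM of TFPI (SD, n = 8) and Low pancreas 1.64 ± 1.59 (SD, n = 9). TFPI fitted without a filter stood at -0.04 (SE 0.69, adjusted p = 0.97).

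The shallow libraries also differed in what they contained. Set beside High pancreas, their 11 matched ductal markers summed to 422 to 727 CPM, against 1738 to 3367. Their 12 macrophage and leukocyte markers had a median sum of 182 CPM, against 59.9, but the ranges overlapped (80.22 to 188.7, against 36.95 to 180). Their part in the values of CMAH and F3 was not tested. All shallow libraries carry the Low label, so depth, makeup and label cannot be told apart within them.

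**Figure D3:**
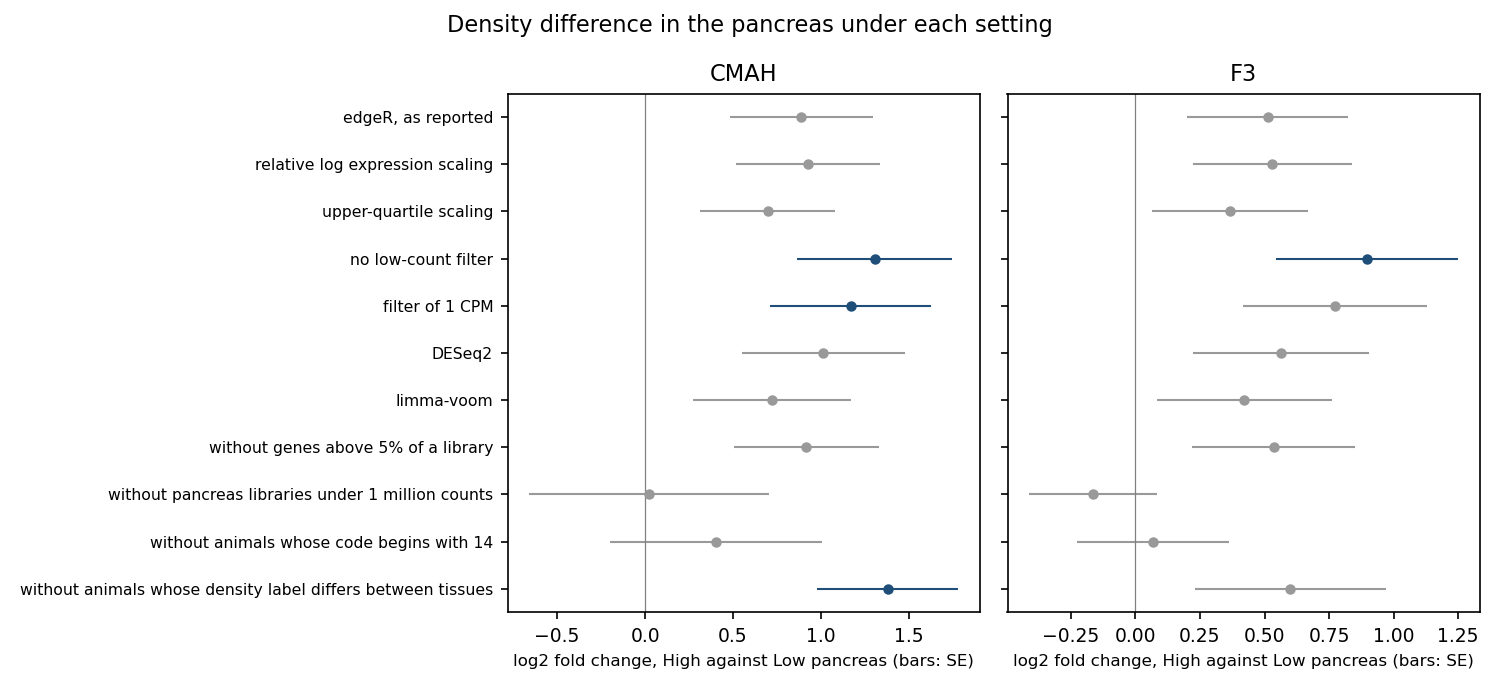
Log2 fold changes of CMAH and F3 for High against Low pancreas, with SE as bars, for the reported edgeR fit and each other setting; blue marks values that passed an adjusted p of 0.05. CMAH runs from 0.02 without the shallow libraries to 1.38 without animals of differing labels, and F3 from -0.17 to 0.90.

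In islets, CMAH was 0 to 2.72 CPM in the High libraries and 0 to 2.32 CPM in the Low ones. The CMAH means were 0.963 ± 0.994 (SD, n = 8) and 0.676 ± 0.700 CPM (SD, n = 9). These counts did not pass the filter, and without a filter the log2 fold change of CMAH for High against Low was 0.53 (edgeR, SE 0.63, adjusted p = 0.983), with an interval from -0.73 to 1.80. F3 was 3.71 to 9.52 CPM (median 6.95) in High and 2.57 to 27.8 CPM (median 7.33) in Low islets. The F3 log2 fold change was -0.34 (edgeR, SE 0.35, adjusted p = 0.999), with an interval from -1.04 to 0.36. It turned to 0.11 (0.999) without the Low library of 14HS26. TFPI stood at 0.69 (SE 0.87, adjusted p = 0.983) without a filter. In this comparison 0% of the 12070 tested genes passed with edgeR, 257 had an unadjusted p under 0.05, and DESeq2 and limma-voom called 0.

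Whether High and Low differed unequally in islets and pancreas was tested as an interaction, where 39.9% of 14337 genes passed, 3183 in the higher and 2535 in the lower direction (3995 and 1670 with upper-quartile scaling). For CMAH it was -0.41 (edgeR, SE 0.99, adjusted p = 0.776). For F3 the interaction was -0.98 (SE 0.48, adjusted p = 0.0935), which did not pass. Restricted to animals with both tissues, the fit without a block put F3 at -1.34 (adjusted p = 0.0384) and the fit blocked on animal at -1.72 (0.0372), and both passed. Without the animals whose code begins with 14 it was 0.34 (0.738).

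The genes around CMAH in sugar and sialic acid metabolism moved in both directions. Of 23 listed, 19 were matched and 18 tested in islets against pancreas. Apart from CMAH, 2 rose and 8 fell of 17, where 31.1% of all tested genes rose and 31.5% fell. The whole list had a median log2 fold change of -0.48 beside -0.01 over all tested genes. The 3 that fell most were A4GALT at -5.99, which makes the Pk antigen and, like CMAH, passed the filter through pancreas, ST6GAL1 at -4.00 and ST3GAL1 at -3.56, both sialyltransferases (edgeR, adjusted p = 2.81e-20, 1.73e-17 and 1.08e-17). FUT2, a fucosyltransferase of blood group H synthesis, rose by 1.24 (0.00222), but stood at -0.02 (0.974) with only the shallow libraries as pancreas. FUT2 did not pass the filter among pancreas libraries alone. GNE, the first enzyme of sialic acid synthesis, rose by 0.58 (0.0332), but stood at 0.20 (0.248) without the shallow libraries.

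CMAS, NANS and SLC35A1, which activate, make or carry sialic acid, were picked out after their values were seen. CMAS, which activates sialic acid for CMAH, was at 0.00 (edgeR, SE 0.14, adjusted p = 0.982) in islets against pancreas. Before the scaling used in the test, islet libraries averaged 26.5 ± 8.94 CPM of CMAS (SD, n = 18). The pancreas libraries averaged less, 17.76 ± 7.53 CPM (SD, n = 17). CMAS was at 0.01 (0.973) without the shallow libraries and at 0.54 (0.0637) with these alone, and passed in neither fit. NANS, the sialic acid synthase, fell by 0.60 (0.0123), and did so without the shallow libraries (-0.84, 0.000973) but not with these alone (0.39, 0.124). SLC35A1, which carries activated sialic acid into the Golgi, was at -0.36 (0.146). It was at -0.65 (6.37e-05) without the shallow libraries and at 2.41 (1.38e-05) with these alone, in opposite directions.

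Among complement regulators, 11 of 17 listed genes were matched and 5 tested, of which 1 rose and 3 fell in islets, with a median of -1.70, beside the same 31.1% and 31.5% over all genes. CLU, clusterin, which blocks the terminal complex in fluid, rose by 4.59 (edgeR, SE 0.43, adjusted p = 2.65e-12), to 3361 ± 1085 CPM (SD, n = 18). SERPING1, the C1 inhibitor, fell by 3.50 (7.87e-18) and C4BPA, a chain of the C4b-binding protein, by 1.82 (5.92e-06). SUSD4 fell by 1.70 (0.0175), but stood at 1.38 (0.00132) without the shallow libraries, the opposite direction. Of 25 complement components and receptors, 21 were matched and 13 tested. Of these, 1 rose, C6 of the terminal complex at 2.52 (9.34e-10), and 8 fell, with a median of -1.63. C6 did not pass the filter among pancreas libraries alone. The largest falls were C7 at -6.32, C4A at -4.20 and CFD, or factor D, at -3.88 (adjusted p = 5.98e-18, 1.24e-16 and 1.35e-14). These 3 genes did not pass the filter among islets alone, so they entered the test through pancreas and could hardly have shown anything but a fall. Reads of C4A may be shared with near-identical copies.

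On the clotting side, 14 of 21 listed regulators were tested. Of these 4 rose and 6 fell (over all genes 31.1% and 31.5%), with a median of -0.13. The largest rises were CPB2, an inhibitor of fibrinolysis, at 3.06, SERPIND1, or heparin cofactor II, at 2.09, and ANXA2, a plasminogen receptor, at 1.96 (edgeR, adjusted p = 5.08e-09, 3.5e-10 and 1.56e-10), of which CPB2 did not pass the filter among pancreas libraries alone. The largest falls were A2M, a broad protease inhibitor, at -4.05, ENTPD1, which degrades platelet-activating ADP, at -2.42, and PROS1, the cofactor of activated protein C, at -2.41 (1.11e-15, 6.42e-14 and 3.36e-13). With only the shallow libraries as pancreas PROS1 was at -0.74 (0.106).

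Of 22 clotting factors and thrombin receptors, 11 were tested including F3. Apart from F3, 1 rose and 7 fell, where 31.1% of all tested genes rose and 31.5% fell. The whole list had a median of -1.996, beside -0.01 over all tested genes. TGM2, tissue transglutaminase, rose by 1.71 (edgeR, adjusted p = 0.00531), but stood at 0.85 (0.406) with only the shallow libraries as pancreas. F13A1, F7, which encodes the partner of tissue factor, and FGB, a fibrinogen chain, were at -5.16, -4.80 and -4.40 (1.91e-10, 9.02e-15 and 2.92e-08). All 3 entered the test through pancreas, since they did not pass the filter among islets alone, where their means were 0.298, 0.284 and 1.33 CPM. Without the shallow libraries F7 was at -4.79 (1.4e-13), and F13A1 and FGB did not pass the filter. Counts of all these lists without the shallow libraries were 2 higher and 11 lower of 18 sugar genes, 3 and 3 of 7 complement regulators, 2 and 8 of 13 components, 5 and 5 of 14 clotting regulators and 1 and 6 of 10 clotting factors, where 34.1% of all tested genes were higher and 33% lower. With only the shallow libraries as pancreas they were 4 and 8 of 19, 2 and 8 of 11, 1 and 11 of 16, 5 and 7 of 16 and 1 and 6 of 11 in the same order, where 40.5% were higher and 30.2% lower.

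**Figure D4:**
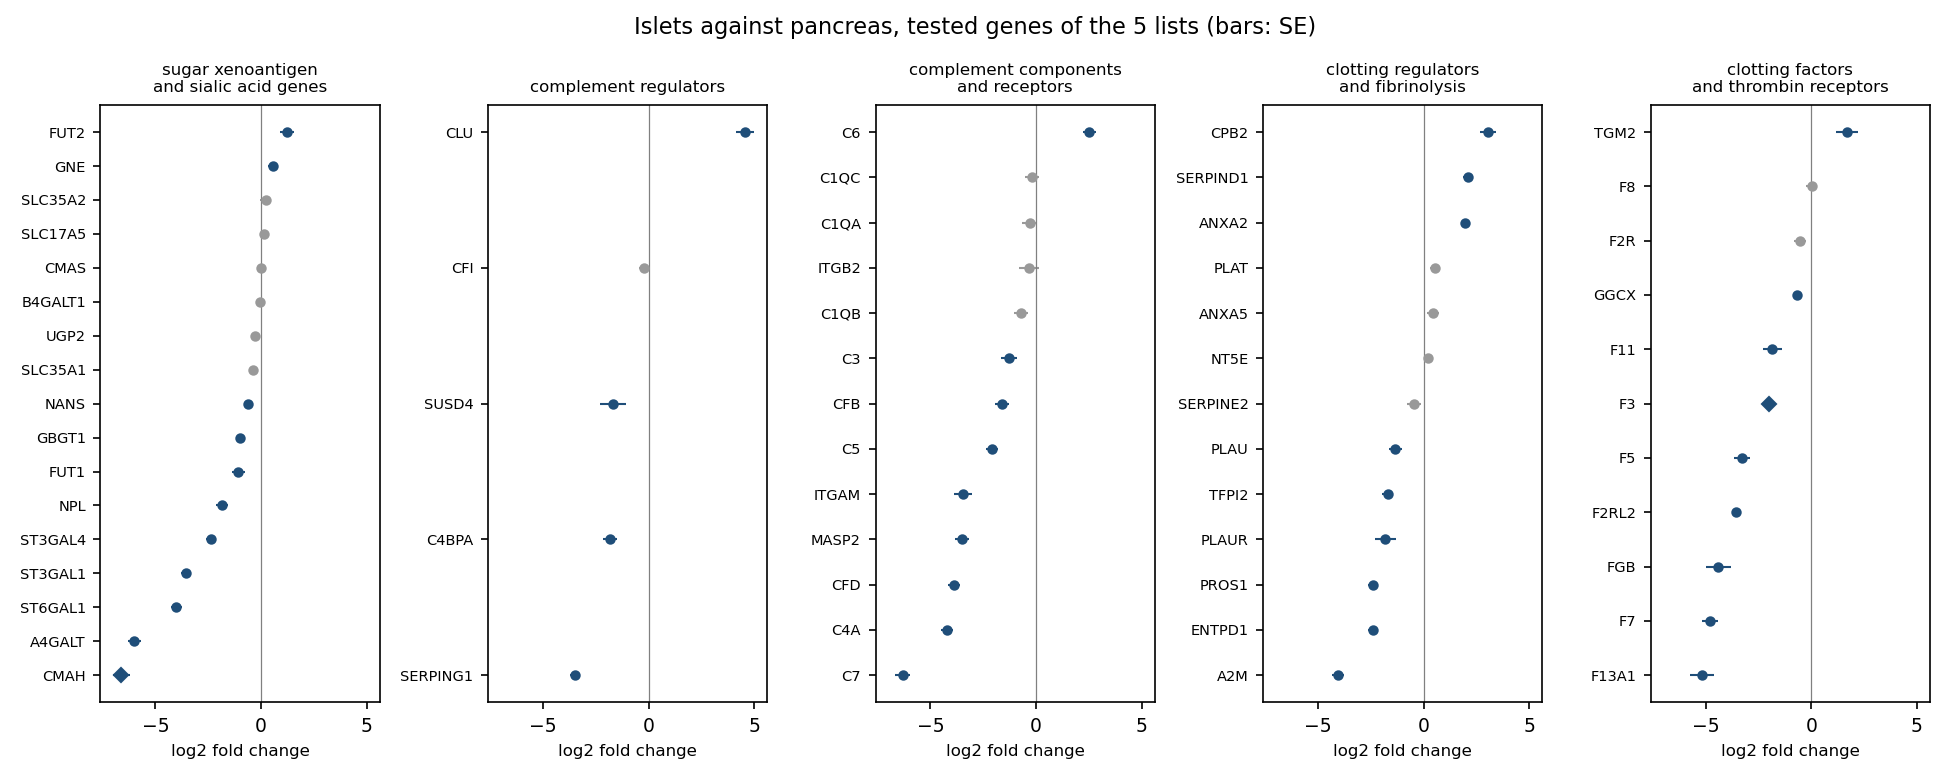
Log2 fold change of islets against pancreas for tested genes of the 5 lists, with SE as bars. Genes at positive values were higher in islets; CMAH stands lowest among the sugar genes at -6.61, F3 is at -1.996 among the clotting factors, and CLU is highest at 4.59.

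In High against Low pancreas, genes of the same lists passed in both directions, where 18.8% of all tested genes rose and 21.5% fell. Of 16 sugar genes tested 3 rose and 3 fell, and among them were GNE (1.17), ST3GAL1 (0.84) and B4GALNT1 (-3.96). Of 6 complement regulators 2 fell, SUSD4 (-5.18) and CSMD1 (-3.53). Of 13 components 2 rose, CFD (1.42) and MASP2 (0.99), and 6 fell, most in C8B (-3.80) and ITGAM (-2.69), the leukocyte integrin chain. Of 11 clotting regulators 3 rose, most in ANXA5 (1.32) and PROS1 (0.80). Of 12 clotting factors GGCX (1.02) rose and 4 fell, most in F11 (-2.90) and F13A1 (-1.96). None of these passed without the shallow libraries, where 0 genes passed in all, and no list gene passed in islets. In islets against pancreas, B4GALNT1, CSMD1 and C8B did not pass the filter on low counts without the shallow libraries. With only these as pancreas they passed it. These genes were thus counted mainly in the shallow Low libraries, so High against Low could hardly have shown anything but a fall for them.

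The genes with the most similar pattern were found by Pearson correlation of log2(CPM + 1), as a description over libraries that share depth and makeup. Being the highest of all tested genes with a symbol, such values are high partly by selection. For CMAH over the 10 deeper pancreas libraries they were PPP4R4 (r = 0.939, Spearman 0.842), TARS3 (0.906, 0.915) and UACA (0.899, 0.77). For F3 over the same libraries they were HCFC1 (0.962, 0.855), CBL (0.959, 0.879) and LCLAT1 (0.956, 0.939). For F3 over the 18 islet libraries they were TRIM36 (0.882, 0.668), SLITRK6 (0.853, 0.796) and PARP16 (0.847, 0.81). The islet library of 14HS26, with 126 counts of F3, also held the most counts of TRIM36 among islets (84, next 40). Without it the value of TRIM36 was 0.824. CMAH and TFPI had too few counts in islets, at most 9 and 14, for such a pattern to be read.

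In RefSeq's Sscrofa11.1 annotation, used for gene order only, CMAH lies between non-coding genes, F3 next to ABCD3, and TFPI next to CALCRL and overlapping a non-coding gene. ABCD3 stood at -0.99 (edgeR, adjusted p = 0.000454) and CALCRL at -2.38 (3.06e-10) in islets against pancreas. Whether counting used strand is not stated, so reads of TFPI and the overlapping gene cannot be told apart.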

How the data were processed

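The authors deposited whole-number read counts per Ensembl gene, in a table for each tissue. Per the submitters' processing notes, FastQC, HISAT2 2.0.2, Subread and edgeR were used with the build susScr3, with no role or order. How reads were counted, with or without strand, and on which annotation is not given in the sources used here. Symbols came from a table of Ensembl identifiers. The animal code and the tissue in a column's name gave its sample for 35 columns, and 1 further column was not used.

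The test was that of edgeR 4.0.16, run in R 4.3.3 (filterByExpr, TMM, robust quasi-likelihood, two-sided, Benjamini-Hochberg over all tested genes, threshold 0.05), which was tested on simulated data. Intervals are the estimate ± 2 SE. Printed CPM use the library total, whereas tests use TMM-scaled sizes. Alternatives included limma-voom of limma 3.58.1, DESeq2 1.42.0, other filters and scalings, and leaving out libraries.

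The members and gene lists were chosen with earlier results of these data known. All members were named, and of each of the 5 lists the 3 called genes with the largest fold change in each direction between tissues and the 2 between densities. Some listed genes are counted but not reported here by name. Animal codes in the labels pair the tissues of 16 animals. Deviations from group means of the same animal correlated at a median of -0.0225 (-0.382 to 0.217). In 0 of 16 animals was the best match the other tissue of the same animal. Among 128 pairs within groups, 0 held identical counts. Separate samples are by label, and p-values measure the spread between them. Depth was 265000 to 6702589 counts.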

Additional observations from a re-analysis of the deposited data

Results flagged for a closer look

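In 4 of 12 examined groups of a gene and a labelled group, the highest library stood far from the rest by Dixon's gap criterion at 95%. F3 was at 27.8 CPM in the Low islets of animal 14HS26, on 126 counts, and the next library of that group was at 10.2 CPM. The pancreas of the same animal held 3 counts of F3, or 6.96 CPM. CMAH was at 2.32 CPM in the Low islets of animal 14BS54, on 9 counts, against 0.862 CPM in the next library. TFPI was at 6.47 CPM in the High pancreas of animal 16CS60, on 12 counts, against 2.04 CPM in the next. TFPI was at 3.42 CPM in the High islets of animal 12FS135, on 14 counts, against 0.545 CPM in the next, and this library also held the most CD163 counts among the islets (20, next 7). Such a criterion marks some groups by chance, at a rate of about 1 in 20.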

How the results depend on the processing

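In the density comparison in pancreas, depth, makeup and label cannot be told apart for the shallow libraries, which are 7 of the 9 Low ones. Low counts limited CMAH and TFPI in islets, which were mostly at or under 3 counts. The cause of the changes below was not tested, except that filters and left-out libraries change the genes and samples tested.

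Between tissues, CMAH passed in all 12 alternatives (-6.98 to -4.72), and leaving out each library gave -6.77 to -6.46 for CMAH and -2.23 to -1.93 for F3, with both calls kept. F3 missed the threshold only with the shallow libraries as pancreas (-0.29). With the replicate block of the animal, CMAH was at -6.24 (adjusted p = 3.54e-11), F3 at -1.95 (3.42e-05) and 6719 genes passed; the F3 interaction passed with the block (-1.72) and also in the same animals without it (-1.34), so the block itself changed no call of CMAH or F3. Without a low-count filter 15012 genes passed. Upper-quartile scaling moved the median of all genes to -0.135, with 3351 higher and 4363 lower in place of 3834 and 3892.

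In High against Low pancreas, 10836 genes passed without a filter, 7587 with a filter of 1 CPM, and 0 without the shallow libraries or without the animals of code 14. CMAH was at 1.30, 1.17 and, without animals of differing labels, 1.38, and ranged from 0.73 to 1.27 with 1 library left out. F3 was at 0.90 without a filter and -0.17 without the shallow libraries.

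In islets, F3 ranged from -0.45 to 0.11 with 1 library left out and was at 0.41 without the animals of code 14. For the interaction, 8812 genes passed without a filter and 9 without those animals. F3 was there at -1.36 without a filter, -1.34 in animals with both tissues and 0.34 without code 14, and CMAH at 0.62 without code 14. Leaving out each library was not run for the interaction. The fits on shallow pancreas only, on animals with both tissues without the block and without animals of differing labels, and the list counts without libraries, were chosen after seeing the data.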
